A study of Mus musculus with 21 samples.

Results

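The genes described here are 9 mouse Toll-like receptor genes, Tlr1, Tlr2, Tlr3, Tlr4, Tlr6, Tlr7, Tlr8, Tlr9 and Tlr13, and Cd14. They were taken by symbol from a count table of 23420 gene symbols, and all 10 were found there. The table holds RNA sequencing of 21 libraries from sorted inflammatory monocytes (IMs). Bone marrow (BM) IMs came from healthy FVB mice (n = 3) and healthy DBA2 mice (n = 3). Tumor-associated IMs (TIMs) came from FVB mice carrying KAL-LN2-E1, here LN2E1, a squamous lung cancer line placed in the lung with 500000 cells per mouse. They were sorted from the primary lung tumor (n = 5) and from lymph node metastases (n = 5). A further group of TIMs (n = 5) came from lung tumors of DBA2 mice given 300000 LN4K1 cells intravenously. Each tumor model was thus 1 injected cell line, and no IMs from healthy lung or lymph node were analysed here, so tissue and tumor cannot be told apart in a comparison with BM IMs. Cells were enriched with a kit and sorted as CD45+, CD11b+, Ly6G- and high in Ly6C among live cells, and Siglec-F+ cells, which alveolar macrophages and eosinophils are, were gated out with the dead cells, a step the methods describe for lung tissue. Ptprc, which encodes CD45, lay between 616 and 3012 CPM (read counts scaled to library size) over the libraries, Itgam, which encodes CD11b, between 257.9 and 1604 CPM, and Ly6c2 between 974 and 3600 CPM. These ranges pool all groups, and some genes of the sort differed between TIMs and BM IMs, as given below with other markers. The library protocol does not keep the strand of a transcript.

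Toll-like receptors are membrane proteins of innate immune cells that bind molecules of microbes or of damaged cells. Those on the cell surface bind mainly lipids and proteins: TLR2 pairs with TLR1 or TLR6 to bind bacterial lipopeptides, and TLR4, with its partner MD-2 and the coreceptor CD14, binds lipopolysaccharide. TLR3, TLR7, TLR8, TLR9 and TLR13 lie in endosomes and bind nucleic acids. Most signal through the adaptor MyD88, TLR3 signals through TRIF and TLR4 uses both, and the signals reach NF-kB and interferon regulatory factors. CD14 is a classical surface marker of monocytes and macrophages.

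Library depth lay between 80772922 and 101043568 counts, so that 3 counts, the limit that a count of 0 allows, correspond to between 0.0297 and 0.0371 CPM, for counting error only. The LN4K1 lung TIM library of replicate 3 held 12015 genes with at least 10 counts against 13272 to 13695 in its group, with Csf1r at 785 CPM against 1420 to 2278 CPM. In lymph node TIMs the library of replicate 1 held the fewest such genes, 11047. Results that changed without these libraries are given with both values. The methods describe replicates as technical, so p-values may cover only the spread between libraries of a group.

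Promoters of 7 of the 10 genes were matched in a RefSeq table of GRCm38.p6 that gives 250 bases before and 50 after each start, and Tlr4, Tlr7 and Cd14 were not searched. They were searched on both strands for 3 short motifs linked to the control of myeloid and innate immune genes. GAANNGAAA, the core of the interferon-stimulated response element, stood in 7.52% of all 32851 promoters of the table, GGGANTTTC, part of an NF-kB site, in 1.11%, and GAGGAA, the core bound by PU.1, in 28.3%. Among the 7 matched genes the interferon core was found for Tlr2, the NF-kB letters for Tlr3, and the PU.1 core for Tlr1, Tlr8, Tlr9 and Tlr13. The Tlr6 promoters held none of these letters in this window. The promoters of Tlr2 (chr3:83841559-83841858, minus strand), Tlr3 (chr8:45410331-45410630, minus strand) and Tlr8 (chrX:167264280-167264579, minus strand) are shown because each holds a different one of the 3 motifs, in capitals. The motif starts at base 106 in Tlr2, where it is read on the opposite strand, at base 40 in Tlr3 and at base 174 in Tlr8, again on the opposite strand.
Tlr2: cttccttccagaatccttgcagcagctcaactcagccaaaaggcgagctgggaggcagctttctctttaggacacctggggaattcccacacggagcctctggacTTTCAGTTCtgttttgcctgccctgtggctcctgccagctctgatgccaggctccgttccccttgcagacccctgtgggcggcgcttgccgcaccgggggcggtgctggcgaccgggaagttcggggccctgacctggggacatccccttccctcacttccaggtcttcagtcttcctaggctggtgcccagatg
Tlr3: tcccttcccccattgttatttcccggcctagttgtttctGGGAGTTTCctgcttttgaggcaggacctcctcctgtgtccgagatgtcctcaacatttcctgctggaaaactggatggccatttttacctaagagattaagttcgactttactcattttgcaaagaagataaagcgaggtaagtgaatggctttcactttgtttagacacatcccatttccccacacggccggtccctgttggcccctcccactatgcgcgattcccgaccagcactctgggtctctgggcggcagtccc
Tlr8: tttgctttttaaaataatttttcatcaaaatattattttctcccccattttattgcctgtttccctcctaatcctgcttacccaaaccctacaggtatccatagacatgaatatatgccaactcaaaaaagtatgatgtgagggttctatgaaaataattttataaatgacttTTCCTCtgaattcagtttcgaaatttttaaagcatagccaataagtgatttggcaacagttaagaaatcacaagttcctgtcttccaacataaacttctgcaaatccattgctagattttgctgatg
A match of letters is a description of the sequence and not a bound site.

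TIMs held more transcripts of most of these genes than BM IMs did. In LN2E1 primary tumor TIMs all 10 genes were higher than in FVB BM IMs, between 1.95-fold (Tlr13) and 11.6-fold (Tlr3), and all 10 passed edgeR's quasi-likelihood test at a Benjamini-Hochberg adjusted p under 0.05. In lymph node TIMs 9 of 10 passed as higher than in FVB BM IMs, and Tlr9 did not (adjusted p = 0.241). In LN4K1 lung TIMs 8 of 10 passed as higher than in DBA2 BM IMs, and Tlr13 (adjusted p = 0.0587) and Tlr9 (adjusted p = 0.742) did not. Over all genes tested, 33.4%, 20.2% and 14.3% passed as higher in these comparisons. The median log2 fold change of the 10 genes was 1.82 in primary tumor TIMs, 1.90 in lymph node TIMs and 1.29 in LN4K1 lung TIMs, against medians over all genes of 0.08, -0.04 and 0.03. By the stricter call, an adjusted p under 0.0001 with a log2 fold change above 1, 7 of 10 genes were higher in primary tumor TIMs, where 7.69% of all genes were. It was met by 2 of 10 in lymph node TIMs (3.78% of all genes) and by 2 of 10 in LN4K1 lung TIMs (1.23%). Some of these stricter calls were lost when 1 library was left out. In primary tumor TIMs the call held in 0 of 8 such fits for Tlr6 and in 7 of 8 for Tlr8. It held in 6 of 8 for Cd14 in lymph node TIMs. In LN4K1 lung TIMs it held in 4 of 8 for Tlr4 and in 1 of 8 for Tlr7. The other stricter calls held in all 8. Libraries of TIMs and BM IMs did not overlap for 10, 9 and 9 genes, against 30.7%, 20.1% and 19.9% of all genes. The comparisons of primary tumor and lymph node TIMs share the same FVB BM IM libraries. Scaling by library totals without TMM factors moved the median log2 fold change of all genes by -0.17, -0.29 and -0.22 in these comparisons, and every one of the 10 genes kept a positive log2 fold change.

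**Figure D1:**
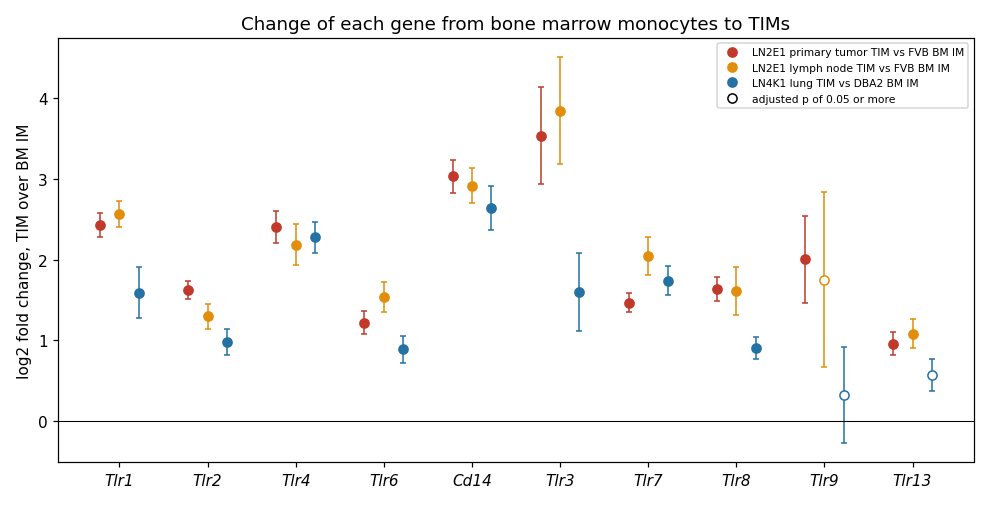
Log2 fold change of each gene from marrow to tumor in 3 comparisons, with bars for the standard error of the fit; filled points passed the test and open points did not. All points lie above 0, from 0.32 for Tlr9 in LN4K1 lung TIMs to 3.84 for Tlr3 in lymph node TIMs.

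Cd14 was the most abundant of the 10 genes and rose in all 3 comparisons. It was at 663, 563 and 540 CPM in FVB BM IMs and at 409, 414 and 533 CPM in DBA2 BM IMs. It reached 4274, 4088, 6925, 4577 and 4480 CPM in primary tumor TIMs and 4655, 4177, 2927, 4729 and 5671 CPM in lymph node TIMs. In LN4K1 lung TIMs it was at 2483, 2052, 4251, 3661 and 2404 CPM. Every TIM library lay above every BM IM library. The fold was 8.17 in primary tumor TIMs (log2 fold change 3.03 ± 0.20 (SE), adjusted p = 2.24e-06), 7.53 in lymph node TIMs (2.91 ± 0.21, adjusted p = 7.37e-06) and 6.23 in LN4K1 lung TIMs (2.64 ± 0.27, adjusted p = 0.000101).

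Tlr4, the lipopolysaccharide receptor that CD14 serves (GRCm38 chromosome 4, 66827584 to 66930284, plus strand), was at a far lower level and was also higher in TIMs. It was at 12.8, 13.8 and 16.4 CPM in FVB BM IMs and at 15.7, 19.3 and 19.1 CPM in DBA2 BM IMs. It was at 59.5, 65.8, 93.2, 94.3 and 71.4 CPM in primary tumor TIMs, at 59.9, 52.8, 45.8, 87.9 and 79.8 CPM in lymph node TIMs and at 74.2, 107, 111, 93.0 and 75.2 CPM in LN4K1 lung TIMs. TIM and BM IM libraries did not overlap, while the 3 TIM groups did. The log2 fold change was 2.40 ± 0.20 (SE, adjusted p = 8.30e-06) in primary tumor TIMs, 2.18 ± 0.25 (adjusted p = 0.000122) in lymph node TIMs and 2.28 ± 0.19 (adjusted p = 2.87e-05) in LN4K1 lung TIMs. Ly96, which encodes the TLR4 partner MD-2 and was chosen after its values were seen, passed in none of these comparisons, with log2 fold changes of 0.10, 0.16 and 0.68 (adjusted p = 0.545, 0.591 and 0.0696).

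Tlr2 (GRCm38 chromosome 3, 83836272 to 83841767, minus strand), the shared partner in lipopeptide recognition, was the most abundant of the 9 receptors per length. It was at 231, 221 and 272 CPM in FVB BM IMs and at 241, 223 and 275 CPM in DBA2 BM IMs. In primary tumor TIMs it was at 779, 737, 806, 756 and 697 CPM, in lymph node TIMs at 545, 595, 475, 636 and 719 CPM, and in LN4K1 lung TIMs at 557, 546, 415, 604 and 443 CPM. All TIM libraries lay above all BM IM libraries, and the BM IMs of both strains overlapped. The log2 fold change was 1.62 ± 0.11 (SE, adjusted p = 2.15e-06), 1.30 ± 0.16 (adjusted p = 0.000161) and 0.98 ± 0.16 (adjusted p = 0.00172) in the order above.

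Tlr1 (chromosome 5, 64924679 to 64933563, minus strand) and Tlr6 (chromosome 5, 64952031 to 64960097, minus strand), the alternative partners of TLR2, are neighbours, and 13.6% of the 50-base words of Tlr1 transcripts also stand in Tlr6 transcripts, so the counting could assign reads of these stretches to neither or either gene. Tlr1 was at 10.7, 12.8 and 9.23 CPM in FVB BM IMs and at 3.78, 5.56 and 4.67 CPM in DBA2 BM IMs. It was at 69.7, 56.2, 61.6, 56.3 and 52.7 CPM in primary tumor TIMs, at 62.4, 64.8, 61.0, 72.2 and 62.1 CPM in lymph node TIMs and at 14.4, 15.9, 7.58, 20.9 and 15.4 CPM in LN4K1 lung TIMs. Each TIM group was above the BM IMs of its own strain, but LN4K1 lung TIMs overlapped FVB BM IMs. The log2 fold change of Tlr1 was 2.42 ± 0.15 (SE, adjusted p = 1.36e-06), 2.57 ± 0.16 (adjusted p = 3.08e-06) and 1.59 ± 0.32 (adjusted p = 0.00520). Tlr6 moved over a narrower range. It was at 20.2, 21.6 and 16.8 CPM in FVB BM IMs, at 18.2, 25.5 and 17.8 CPM in DBA2 BM IMs, between 39.6 and 51.8 CPM in primary tumor TIMs, between 42.7 and 67.2 CPM in lymph node TIMs and between 34.8 and 44.6 CPM in LN4K1 lung TIMs. For this gene the log2 fold change was 1.22 ± 0.14 (SE, adjusted p = 6.72e-05), 1.54 ± 0.18 (adjusted p = 0.000156) and 0.89 ± 0.17 (adjusted p = 0.00401), and TIM libraries again lay above all BM IM libraries.

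**Figure D2:**
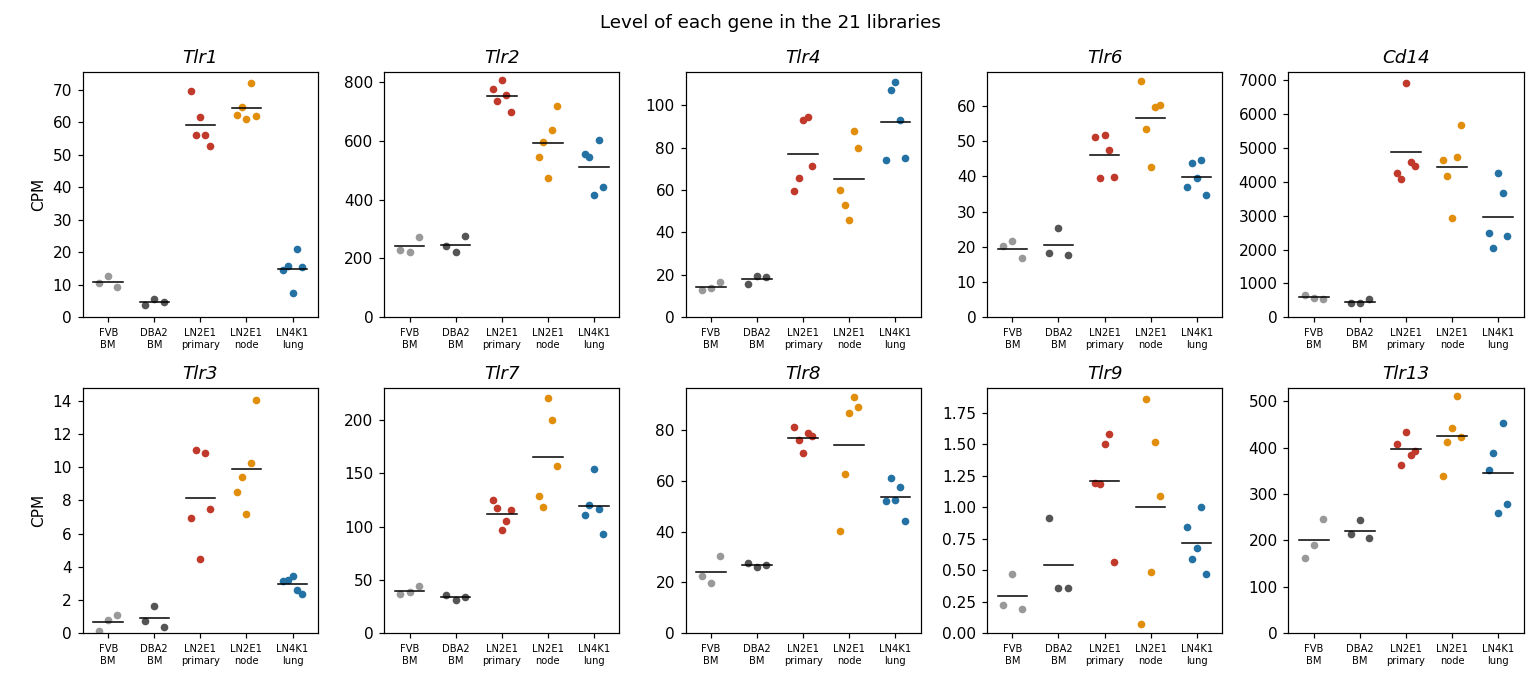
CPM of the 10 genes in the 21 libraries, 1 panel for each gene; points are libraries, horizontal lines are group means, and each axis starts at 0. Tlr1 in LN4K1 lung TIMs, between 7.58 and 20.9 CPM, lies far below both groups of LN2E1 TIMs, whereas for Tlr4 the 3 TIM groups overlap.

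Among endosomal receptors, Tlr7 and Tlr8, which bind single-stranded RNA and lie near each other on chromosome X (167304929 to 167330558 and 167242696 to 167264329, both on the minus strand), were higher in every TIM group. Tlr7 was at 36.7, 39.0 and 44.6 CPM in FVB BM IMs and at 36.5, 31.2 and 33.9 CPM in DBA2 BM IMs. It was at 125, 118, 97.3, 106 and 116 CPM in primary tumor TIMs, at 129, 119, 221, 200.3 and 157 CPM in lymph node TIMs and at 111, 120.3, 154, 117 and 93.5 CPM in LN4K1 lung TIMs. All 15 TIM libraries were above all 6 BM IM libraries. For Tlr7 the log2 fold change was 1.46 ± 0.12 (SE, adjusted p = 7.39e-06), 2.04 ± 0.23 (adjusted p = 0.000123) and 1.74 ± 0.18 (adjusted p = 8.77e-05). Tlr8 was at 22.5, 19.9 and 30.4 CPM in FVB BM IMs and at 27.8, 26.2 and 26.9 CPM in DBA2 BM IMs. It was at 81.0, 75.7, 70.8, 78.5 and 77.6 CPM in primary tumor TIMs, at 40.1, 62.5, 86.4, 92.6 and 88.8 CPM in lymph node TIMs and at 52.0, 60.8, 52.4, 57.4 and 44.3 CPM in LN4K1 lung TIMs. The lymph node libraries were the most spread, the lowest being the library with the fewest genes. For Tlr8 the log2 fold change was 1.64 ± 0.15 (SE, adjusted p = 1.54e-05), 1.61 ± 0.29 (adjusted p = 0.00212) and 0.91 ± 0.14 (adjusted p = 0.00119).

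Tlr13, a mouse receptor for bacterial ribosomal RNA (chromosome X, 106143204 to 106160493, plus strand), had a high level and a small change. It was at 163, 191 and 246 CPM in FVB BM IMs and at 215, 243 and 206 CPM in DBA2 BM IMs. It was at 407, 363, 433, 385 and 393 CPM in primary tumor TIMs, at 339, 411, 442, 510.4 and 422 CPM in lymph node TIMs and at 351, 388, 259, 453 and 278 CPM in LN4K1 lung TIMs. The LN4K1 lung TIM libraries reached down to near the highest BM IM library but did not overlap those of DBA2 mice. The log2 fold change was 0.96 ± 0.14 (SE, adjusted p = 0.000321) and 1.08 ± 0.18 (adjusted p = 0.00108) in primary tumor and lymph node TIMs, and 0.57 ± 0.19 (adjusted p = 0.0587) in LN4K1 lung TIMs. Without LN4K1 lung TIM replicate 3 it was 0.66 and passed (adjusted p = 0.0102). Tlr7, Tlr8 and Tlr13 are X-linked. Xist was found in all 21 libraries, between 27.0 and 87.8 CPM, and was lower in primary tumor TIMs (log2 fold change -0.99, adjusted p = 0.000484) and lymph node TIMs (-0.80, adjusted p = 0.00203) than in FVB BM IMs. The Y-linked Ddx3y was at most at 1.73 CPM, in an LN4K1 lung TIM library.

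Tlr3, the receptor for double-stranded RNA (chromosome 8, 45395665 to 45411080, minus strand), had the largest fold of the 10 genes in both LN2E1 comparisons and a low level. It was at 0.148, 0.815 and 1.09 CPM in FVB BM IMs, from 13, 80 and 122 counts, and at 0.760, 1.63 and 0.391 CPM in DBA2 BM IMs. It was at 6.97, 11, 4.50, 10.8 and 7.45 CPM in primary tumor TIMs, at 8.52, 9.42, 7.19, 10.2 and 14.1 CPM in lymph node TIMs and at 3.14, 3.24, 3.46, 2.60 and 2.35 CPM in LN4K1 lung TIMs. The 3 groups of TIMs lay above all BM IMs, and LN4K1 lung TIMs lay below both groups of LN2E1 TIMs. The log2 fold change was 3.53 ± 0.60 (SE, adjusted p = 0.000761), 3.84 ± 0.66 (adjusted p = 0.00150) and 1.60 ± 0.48 (adjusted p = 0.0370). The last of these was not past the threshold in 6 of 8 fits without 1 library, with adjusted p up to 0.124 in them, nor when library totals were used without TMM factors (adjusted p = 0.0581). An antisense gene, Gm45542, shares 381 exonic bases with Tlr3, and reads of this stretch cannot be told apart. In primary tumor TIMs the fibroblast gene Col3a1 stood at 295, 476, 194, 582 and 330 CPM in the order of the Tlr3 values, and the library lowest in Tlr3 was the lowest in Col3a1. In lymph node TIMs, where Tlr3 lay between 7.19 and 14.1 CPM, Col3a1 lay between 0.727 and 43.4 CPM. The markers Xcr1 and Clec9a of the dendritic cells that express Tlr3 were at most at 4.62 and 2.70 CPM in any library. They belong to a list of 6 conventional dendritic cell markers. Of these, 4 passed as higher in primary tumor TIMs, 2 in lymph node TIMs and 1 in LN4K1 lung TIMs, where 1 was lower. Over all genes 33.4%, 20.2% and 14.3% passed as higher. The list summed to 81.9 to 116, 46.9 to 139 and 102 to 341 CPM in these TIMs. In FVB and DBA2 BM IMs it summed to 78.2 to 89.2 and 92.9 to 108.5 CPM. The part of such cells in the Tlr3 level was not tested.

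Tlr9, the receptor for CpG DNA (chromosome 9, 106222598 to 106226883, plus strand), had the lowest level of the 10 genes in every group. It was at 0.227, 0.469 and 0.197 CPM in FVB BM IMs, at 0.914, 0.359 and 0.359 CPM in DBA2 BM IMs, at 1.20, 1.19, 1.5, 1.58 and 0.570 CPM in primary tumor TIMs, at 0.0727, 1.85, 0.487, 1.51 and 1.09 CPM in lymph node TIMs and at 0.847, 0.591, 0.675, 1.0 and 0.469 CPM in LN4K1 lung TIMs. The values rest on between 6 and 143 counts. Only the primary tumor TIMs did not overlap the BM IMs of their strain, with a log2 fold change of 2.0 ± 0.54 (SE, adjusted p = 0.00946). In the other comparisons it was 1.75 ± 1.1 and 0.32 ± 0.59.

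Markers of other cell types moved with some of these comparisons. Counts of markers are to be read against all genes tested in primary tumor, lymph node and LN4K1 lung TIMs. Of those genes 33.4%, 20.2% and 14.3% passed as higher, and 28.6%, 17.1% and 11.1% as lower. Of 5 sort marker genes tested, 2 passed as higher and 2 as lower in primary tumor TIMs. The counts were 2 and 2 in lymph node TIMs and 1 and 2 in LN4K1 lung TIMs. Of 5 monocyte markers, 3 passed as higher in primary tumor TIMs and 3 in LN4K1 lung TIMs. In lymph node TIMs 2 were higher and 1 was lower. Of 6 macrophage markers, 2, 1 and 1 passed as higher in the 3 TIM groups, and 1 was lower in LN4K1 lung TIMs. These summed to 179 to 242 CPM in FVB and 191 to 225 CPM in DBA2 BM IMs. In the 3 TIM groups they summed to 274 to 456, 257 to 385 and 244 to 377 CPM. All 6 plasmacytoid dendritic cell (pDC) markers passed as higher in primary tumor and in lymph node TIMs than in FVB BM IMs, and 5 of 6 in LN4K1 lung TIMs. Their summed level was 47.3 to 48.7 CPM in FVB mice and 89.5 to 108 CPM in DBA2 mice for BM IMs, 306 to 600.4 CPM for primary tumors, 251 to 1528 CPM in lymph node TIMs and 172 to 237 CPM in LN4K1 lung TIMs. In BM IMs Siglech, Ccr9, Klk1 and Cox6a2 were at most at 1.31, 1.36, 0.0983 and 0.393 CPM. In LN4K1 lung TIMs the same genes were at most at 55.4, 14.4, 0.870 and 16.2 CPM. Most of the sum in BM IMs and LN4K1 lung TIMs thus came from the other genes of the list, Bst2 and Tcf4. Klk1 and Cox6a2, of this list, had 0 counts in all DBA2 BM IM libraries. Plasmacytoid dendritic cells are known for Tlr7 and Tlr9. Siglech, a surface receptor of these cells, was at 328, 245, 477, 131 and 37.1 CPM in the lymph node libraries, against Tlr7 values of 129, 119, 221, 200.3 and 157 CPM in the same order, and the library highest in Siglech was the highest in Tlr7, while the library lowest in Siglech had the median Tlr7 level of that group. In primary tumor TIMs Siglech was at 103, 167, 64.7, 175 and 93.5 CPM against Tlr7 values of 125, 118, 97.3, 106 and 116 CPM, and the library lowest in Siglech was the lowest in Tlr7. The library highest in Siglech there had Tlr7 at 106 CPM, below the group median of 116 CPM. In LN4K1 lung TIMs Siglech was at 24.4, 27.1, 4.34, 17.2 and 55.4 CPM against Tlr7 values of 111, 120.3, 154, 117 and 93.5 CPM. There the library lowest in Siglech was the highest in Tlr7, and it is the one with fewer genes named above (replicate 3). Tlr9 was at most at 1.85 CPM in all libraries, including that with Siglech at 477 CPM. The B cell gene Ms4a1 was at most at 0.396 CPM. The 5 B cell markers summed to 29.6 to 41.0 CPM in FVB BM IMs and 20.4 to 29.6 CPM in DBA2 BM IMs. In primary tumor, lymph node and LN4K1 lung TIMs they summed to 10.1 to 20.2, 13.1 to 26.3 and 16.9 to 35.6 CPM. None of those tested passed as higher in TIMs. As lower passed 1 of 4 in primary tumor TIMs, 1 of 2 in lymph node TIMs and 0 of 2 in LN4K1 lung TIMs. Summed epithelial and fibroblast markers reached 651 and 962 CPM in primary tumor TIMs, mostly from the surfactant gene Sftpc and collagens, against at most 4.61 and 72.2 CPM at the lymph node, 85.6 and 38.2 CPM in LN4K1 lung TIMs and 0.123 and 0.359 CPM in BM IMs. Of 4 endothelial markers, 4 passed as higher in primary tumor TIMs, 3 in lymph node TIMs and 1 in LN4K1 lung TIMs, and their sum lay between 59.0 and 128 CPM in LN2E1 TIMs and between 5.70 and 18.1 CPM in the other groups. All 4 natural killer cell markers passed as higher in LN4K1 lung TIMs, with a sum of 7.04 to 15.8 CPM against 0 counts in DBA2 BM IMs, and 1 passed in primary tumor TIMs and none in lymph node TIMs, where 4 and 3 were tested. Of T cell markers, 3 of 5 tested passed as higher in primary tumor TIMs, 2 of 4 in lymph node TIMs and 3 of 5 in LN4K1 lung TIMs. They summed to at most 27.4, 54.7 and 24.2 CPM there, and to at most 2.51 CPM in FVB BM IMs. Of alveolar macrophage markers, 1 passed as higher and 1 as lower in each TIM group, of 5, 4 and 4 tested. They summed to 113 to 149 CPM in FVB and 35.0 to 75.3 CPM in DBA2 BM IMs. In the 3 TIM groups they summed to 26.2 to 39.1, 36.6 to 79.7 and 5.67 to 25.6 CPM. Summed eosinophil markers reached 1071 CPM in BM IMs and at most 66.7 CPM in TIMs. Summed neutrophil markers lay between 3941 and 5000 CPM in FVB BM IMs, between 1110 and 2121 CPM in primary tumor TIMs and between 650 and 1116 CPM in lymph node TIMs. In the DBA2 model the sums overlapped, with 1494 to 2077 CPM in BM IMs and 1449 to 2334 CPM in LN4K1 lung TIMs. The part of these cells in the levels of Toll-like receptors was not tested, and in RNA from sorted cells in bulk a change in the share of cells cannot be told apart from a change in RNA per cell.

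**Figure D3:**
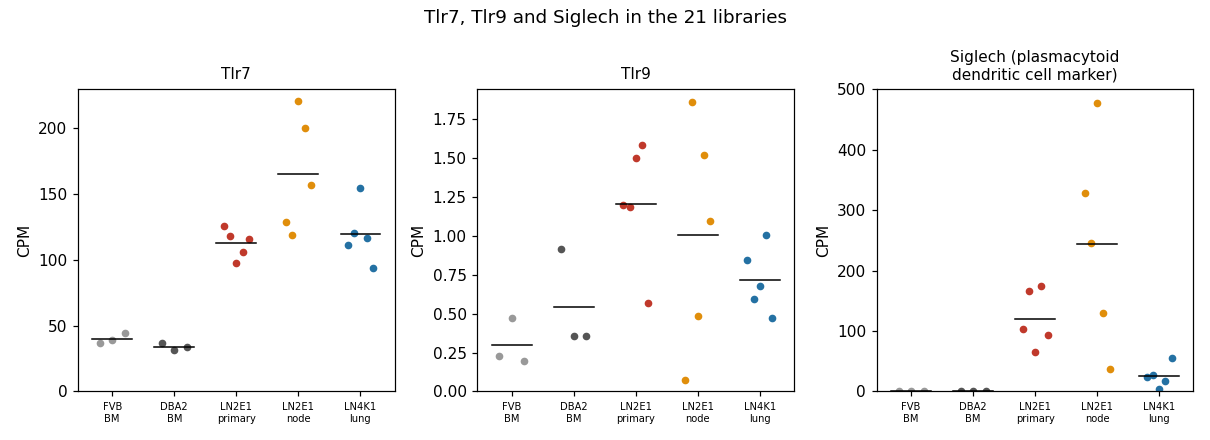
CPM of Tlr7, Tlr9 and the pDC marker Siglech in the 21 libraries; points are libraries in the same order in each panel, lines are group means and axes start at 0. Tlr7 and Siglech are higher in all TIM libraries than in BM IMs, and Tlr9 stays at or below 1.85 CPM.

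Lymph node and primary tumor TIMs of the LN2E1 model were compared to see whether the site mattered. By edgeR's quasi-likelihood test none of the 10 genes passed, while 11.7% of all genes did in either direction. With no adjustment 3 of 10 had a p under 0.05, and DESeq2 called 2. The 11.7% does not apply to these 2 counts, and the shares of all genes that do are not given here. Tlr7 was nearest to the threshold from above, with means of 165 and 112 CPM (log2 fold change 0.56 ± 0.17 (SE), adjusted p = 0.0515), and Tlr2 from below, with 594 and 755 CPM (-0.34 ± 0.11, adjusted p = 0.0665). Both are the genes that DESeq2 called. Without lymph node TIM replicate 1 the log2 fold change of Tlr7 was 0.64 and passed (adjusted p = 0.0240), as it did without replicate 2 (0.66, adjusted p = 0.0238), and Tlr2 passed without replicate 5 (-0.41, adjusted p = 0.0256). For the other genes the log2 difference lay between -0.25 (Tlr9) and 0.31 (Tlr6), and the libraries of both sites overlapped for all 10 genes. The genes with a p under 0.05 before adjustment were Tlr2, Tlr6 and Tlr7.

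Between the BM IMs of both strains 1 of 10 genes passed. Tlr1 was lower in DBA2 than in FVB BM IMs, with means of 4.67 and 10.9 CPM (log2 fold change -1.20 ± 0.22 (SE), edgeR adjusted p = 0.00822), and passed in all 6 fits without 1 library. Of all genes, 9.29% passed as lower in DBA2 BM IMs. Cd14 and Tlr7 also had lower means in DBA2 BM IMs but did not pass (log2 fold changes of -0.36 and -0.22, adjusted p = 0.0882 and 0.277). Without FVB BM IM replicate 3, Tlr4 (0.48, adjusted p = 0.0465), Tlr8 (0.39, adjusted p = 0.0406) and Tlr13 (0.36, adjusted p = 0.0292) also passed, as higher in DBA2 BM IMs. The share of all genes that passed as higher in that fit is not given here, so these passes cannot be read against it.

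The rise from BM IMs to TIMs was then compared between models by an interaction term, the log2 fold change in LN2E1 primary tumors minus that in LN4K1 lung tumors. Strain, cell line, route and tissue differ together here and cannot be told apart. Of the 10 genes, 2 passed, both with a larger rise in LN2E1, as did 13.2% of all genes. They were Tlr8, with 0.75 ± 0.19 (SE, edgeR adjusted p = 0.0115), and Tlr2, with 0.66 ± 0.19 (adjusted p = 0.0191). Tlr8 passed in all 16 fits without 1 library but not in a fit of all 5 groups (adjusted p = 0.0916). Tlr2 did not pass in 3 of the 16, with adjusted p up to 0.0632. Tlr3 (1.96 ± 0.73, adjusted p = 0.0592), Tlr9 (1.70 ± 0.74, adjusted p = 0.10) and Tlr1 (0.85 ± 0.34, adjusted p = 0.0728) had larger differences with larger errors and did not pass. Without LN4K1 lung TIM replicate 3 the difference of Tlr1 was 0.68 and passed (adjusted p = 0.0335). Tlr4 (0.14 ± 0.26) and Tlr7 (-0.26 ± 0.20) were the nearest to 0.

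Per length of their exons, the receptors kept much the same order in all groups. Levels of different genes were compared as CPM per kb of exon in GENCODE vM21. Tlr2 made up 51.9% ± 2.12 (SD, n = 3) of the summed level of the 9 receptors in FVB BM IMs, 51.2% ± 4.29 (n = 3) in DBA2 BM IMs, 57.3% ± 0.866 (n = 5) in primary tumor TIMs, 48.6% ± 4.69 (n = 5) in lymph node TIMs and 52.0% ± 2.44 (n = 5) in LN4K1 lung TIMs. Tlr13 was the second in each group, with 29.9% ± 2.70 in FVB BM IMs, 32.3% ± 3.39 in DBA2 BM IMs, 21.1% ± 0.859 in primary tumor TIMs, 24.4% ± 2.29 in lymph node TIMs and 24.3% ± 2.25 in LN4K1 lung TIMs. Tlr7 was the third in each group, with means between 5.21% and 10.0%. Tlr3 and Tlr9 together stayed under 1% in all groups. Tlr1 was the sixth of the 9 receptors in FVB BM IMs and the fifth in both groups of LN2E1 TIMs, and Tlr4 was the fourth in LN4K1 lung TIMs. Cd14 was above every receptor per kb, with a mean of 340 CPM per kb in FVB BM IMs against 80.1 for Tlr2, and of 2811 against 250.5 in primary tumor TIMs.

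**Figure D4:**
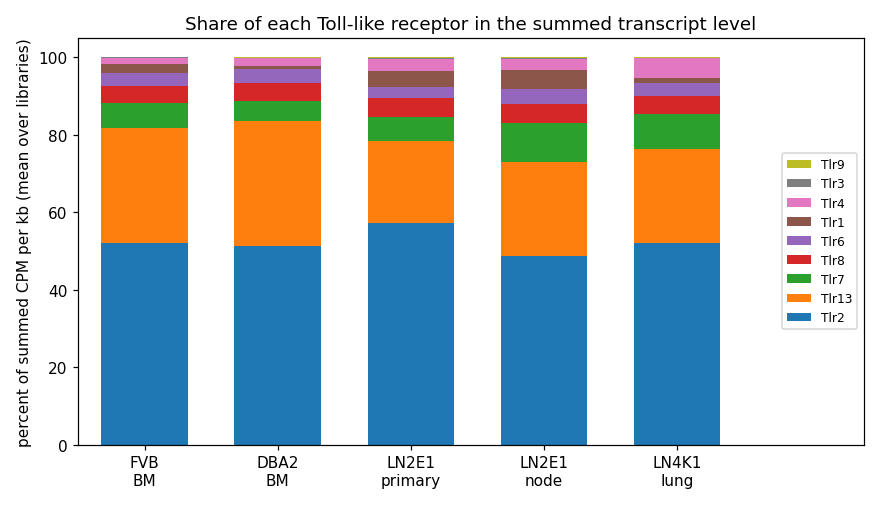
Mean share of each of the 9 Toll-like receptors in their summed CPM per kb of exon, as stacked bars for the 5 groups. Tlr2 takes between 48.6% and 57.3% and Tlr13 between 21.1% and 32.3%.

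Ratios within a library do not depend on the scaling between libraries. The ratio of Tlr1 to Tlr6 per kb had a median of 0.612 in FVB BM IMs (0.589 to 0.662) and 0.243 in DBA2 BM IMs (0.232 to 0.292). It was 1.47 in primary tumor TIMs (1.32 to 1.58), 1.35 in lymph node TIMs (1.03 to 1.59) and 0.432 in LN4K1 lung TIMs (0.213 to 0.522). Tlr1 was thus above Tlr6 in all 10 LN2E1 TIM libraries and below it in the other 11 libraries. The ratio of Tlr7 to Tlr8 had medians of 1.44 in FVB BM IMs, 1.11 in DBA2 BM IMs, 1.31 in primary tumor TIMs, 1.90 in lymph node TIMs and 1.86 in LN4K1 lung TIMs, so Tlr7 was the higher of the pair throughout. Its lowest value in any library was 1.05. The ratio of Cd14 to Tlr4 was 130.3 in FVB BM IMs, 83.5 in DBA2 BM IMs, 201 in primary tumor TIMs, 228 in lymph node TIMs and 107 in LN4K1 lung TIMs. These ratios are given as descriptions, with no test.

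**Figure D5:**
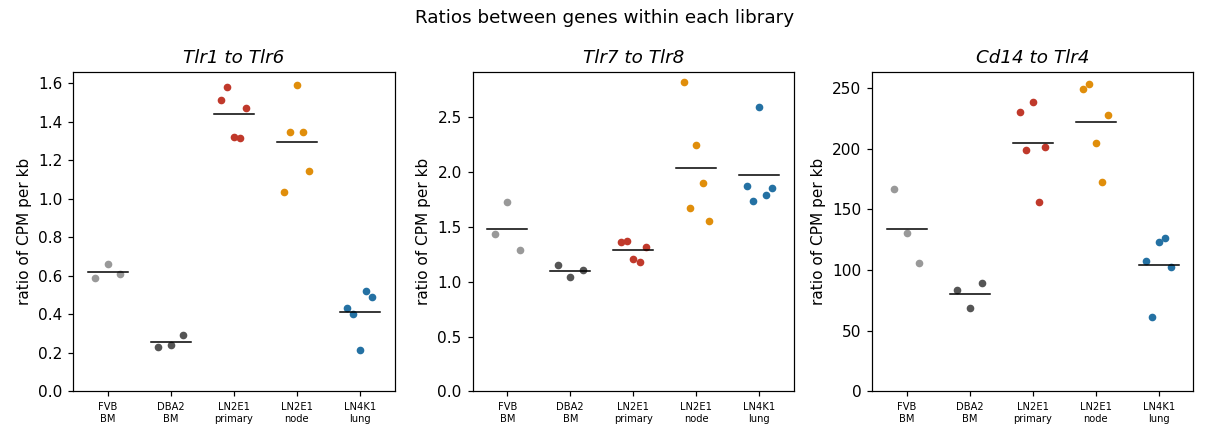
Ratios of CPM per kb between paired genes within each library; points are libraries, lines are group means and axes start at 0. The ratio of Tlr1 to Tlr6 is above 1 in all LN2E1 TIM libraries, from 1.03 to 1.59, and at most 0.662 elsewhere.

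For 5 of the genes the group means spanned more than 2 on the log2 scale, and the genes with the most similar profile were sought among 10481 others, as the smallest root mean square difference in centred log2 CPM over the 21 libraries. For Cd14 these were Clec4e (0.278), Gp49a (0.292) and Rab20 (0.300). For Tlr4 they included the chemokine receptor Ccr1 (0.285) and Ambp (0.374). For Tlr1 they were the tetraspanin Cd9 (0.348), the glucose transporter Slc2a1 (0.351) and Galnt6 (0.423). For Tlr7 they were Vopp1 (0.222), the integrin chain Itga4 (0.255) and Fam49a (0.272). For Tlr3 they were Plscr1 (0.407), Antxr2 (0.431) and Gyk (0.432). Clec4e encodes Mincle, a lectin receptor of myeloid cells for glycolipids.

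Of 56 other genes of the pathway, 36 of 55 tested passed as higher and 6 as lower in primary tumor TIMs than in FVB BM IMs. In lymph node TIMs 24 of 55 were higher and 5 lower, and in LN4K1 lung TIMs 15 of 54 were higher and 2 lower than in DBA2 BM IMs. Over all genes tested, 33.4%, 20.2% and 14.3% passed as higher and 28.6%, 17.1% and 11.1% as lower in these comparisons, and the counts of the pathway groups are to be read against these shares. The median log2 fold change of the tested pathway genes was 0.65, 0.82 and 0.34. The remaining mouse Toll-like receptors, Tlr5, Tlr11 and Tlr12, all passed as higher in primary tumor TIMs (log2 fold changes of 2.29, 2.87 and 5.47), only Tlr5 did in lymph node TIMs (1.81, adjusted p = 0.0167) and none did in LN4K1 lung TIMs. They were low, with group means of at most 13.3 CPM. Tlr11 and Tlr5 were higher in DBA2 than in FVB BM IMs, with means of 4.51 against 0.395 CPM and of 6.99 against 2.69 CPM.

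Accessory and trafficking proteins moved in both directions. Of 10 such genes, 4 passed as higher and 2 as lower in primary tumor TIMs, 3 and 2 in lymph node TIMs, and 2 and 1 in LN4K1 lung TIMs, which is near the shares of 33.4%, 20.2% and 14.3% higher and 28.6%, 17.1% and 11.1% lower over all genes. Cd36, a scavenger receptor that delivers lipids to TLR2, had the largest change. Mean levels of 4.80 CPM in FVB BM IMs, 102 CPM in primary tumor TIMs and 325 CPM at the lymph node gave log2 fold changes of 4.39 and 6.08, and the means were 4.28 and 20.8 CPM in DBA2 BM IMs and LN4K1 lung TIMs (2.20). It was also higher in lymph node than in primary tumor TIMs (1.68, adjusted p = 0.00182). Lbp, which carries lipopolysaccharide to CD14, was lower in lymph node TIMs (-1.54, adjusted p = 0.000430) and LN4K1 lung TIMs (-1.16, adjusted p = 0.00219) and did not pass in primary tumor TIMs (-0.23). Unc93b1, which takes the endosomal receptors to their place and was chosen after its values were seen, had log2 fold changes of 0.14, 0.25 and -0.07 and did not pass.

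Among 5 adaptors, Myd88 was higher in every TIM group, with log2 fold changes of 1.63, 1.70 and 1.62 (adjusted p at most 0.000137). Ticam1, which encodes TRIF, passed in primary tumor TIMs (0.71, adjusted p = 0.00693) and was lower in lymph node than in primary tumor TIMs (-0.94, adjusted p = 0.0120). Of 15 kinases and ubiquitin ligases, 9 passed as higher and 2 as lower in primary tumor TIMs, 5 and 1 in lymph node TIMs, and 1 and 0 in LN4K1 lung TIMs. Over all genes 33.4%, 20.2% and 14.3% were higher and 28.6%, 17.1% and 11.1% lower, so that 1 of 15 in LN4K1 lung TIMs is below the share of all genes. Peli1, a ubiquitin ligase of the pathway, was the one that passed in all 3 (1.63, 2.04 and 1.27). Tab1, a partner of the kinase TAK1, was lower in primary tumor TIMs (-1.26) and lymph node TIMs (-1.25). Among 5 transcription factors, Irf7, which drives interferon genes after TLR7 and TLR9, was higher in primary tumor TIMs (2.85) and lymph node TIMs (3.57) and did not pass in LN4K1 lung TIMs (0.53, adjusted p = 0.168). Its mean was 93.5 CPM in FVB BM IMs and 279 CPM in DBA2 BM IMs, which also differed (1.60, adjusted p = 0.000609). Irf3 was lower in primary tumor TIMs (-0.49) and lymph node TIMs (-0.68).

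Of 8 feedback inhibitors, 6 passed as higher and 1 as lower in primary tumor TIMs, 5 and 1 in lymph node TIMs, and 3 and 1 in LN4K1 lung TIMs, against 33.4%, 20.2% and 14.3% of all genes as higher and 28.6%, 17.1% and 11.1% as lower. Socs1, an inhibitor of cytokine and TLR signals, was at means of 3.0 and 3.29 CPM in FVB and DBA2 BM IMs and at 62.9, 125 and 27.0 CPM in the 3 TIM groups (log2 fold changes of 4.37, 5.38 and 2.96). Tnfaip3, which encodes A20, was higher in primary tumor TIMs (3.11) and lymph node TIMs (2.89) but did not pass in LN4K1 lung TIMs (0.36, adjusted p = 0.398), a difference that passed as an interaction (2.77, adjusted p = 0.000284). Sigirr, another gene of this list of inhibitors, was lower in all 3 (-0.71, -0.90 and -0.60). Of 10 target genes, 8 of 9 tested passed as higher in primary tumor TIMs, 7 of 9 in lymph node TIMs and 6 of 8 in LN4K1 lung TIMs, against the same shares of all genes, and none passed as lower. Saa3, an acute phase gene, had means of 0.454 CPM in BM IMs of FVB mice and 309 CPM in primary tumor TIMs (9.39), with 8.75 in lymph node and 6.99 in LN4K1 lung TIMs. Cxcl10, an interferon-induced chemokine, rose by 6.03, 6.40 and 3.07 on the log2 scale. Il12b had 0 counts in all BM IM libraries, 110 to 715 in primary tumor TIMs, 0 to 103 in lymph node TIMs and 0 to 30 in LN4K1 lung TIMs. Il10 had at most 1 count in FVB BM IMs and 109 to 304 in primary tumor TIMs.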

How the data were processed

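Inflammatory monocytes were sequenced in 21 libraries of 5 groups, taken from the sample labels. The deposited table holds raw counts per gene symbol. The authors trimmed reads with BBDuk, aligned them to mm10 with BBMap and counted them with featureCounts 1.5.2, and its annotation and settings are not given in the sources used here. Here, each comparison was fitted on its own groups in edgeR 4.0.16 (R 4.3.3) with the default filter on low counts, TMM factors, the quasi-likelihood test and Benjamini-Hochberg adjustment over all genes tested, and passed at an adjusted p under 0.05. Standard errors are the log2 fold change divided by the square root of F. CPM used TMM factors over 21 libraries. The fits were also run on simulated counts with the same dispersion for every gene and equal numbers of rises and falls. These settings differ from the data, and the outcome is not reported here. Alternatives were DESeq2 1.42.0, its size factors, other filters, a fit of all 5 groups, a replicate block, library totals and leaving out 1 library at a time. Scaling by library totals was added after seeing the data. Figures used Python 3.11.15 and matplotlib 3.10.9. Of each pathway list, up to 2 passing genes per direction and comparison were named, and the 3 nearest genes by profile for members spanning over 2 on the log2 scale, of which 1 for Tlr4 is not reported here. The genes and lists were chosen with earlier results of these data known.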

Additional observations from a re-analysis of the deposited data

Results flagged for a closer look

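Cd14 in LN2E1 primary tumor TIM replicate 3, at 6925 CPM, stood apart from the other 4 libraries of its group, which lay between 4088 and 4577 CPM. The gap made up 0.828 of the range of the group. Of 30 groups of libraries examined in this way 1 stood out, and chance alone gives about 1 in 20. Cd14 passed in primary tumor TIMs in all 8 fits without 1 library.

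Tlr2 and Tlr8, 2 of the 10 genes, had a larger rise from BM IMs to TIMs in the LN2E1 primary tumor than in the LN4K1 model by the interaction test, with differences in log2 fold change of 0.66 and 0.75. Of all genes tested, 13.2% passed in this direction, so 2 of 10 is near that share. Tlr2 passed in 13 of 16 fits without 1 library. Tlr8 did not pass in edgeR's fit of all 5 groups (adjusted p = 0.0916). Strain, cell line, route and tissue differ between the models and cannot be told apart.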

How the results depend on the processing

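Of 978 comparisons of the log2 fold change of one of the genes with an alternative, 936 stayed on their side of the threshold, 28 came to pass, 14 no longer passed and none of those past the threshold changed direction. The number of the 10 genes that passed stayed at 10 in primary tumor TIMs and 9 in lymph node TIMs in every fit without 1 library, and lay between 7 and 9 in LN4K1 lung TIMs. For lymph node against primary tumor TIMs it was 0, and 1 with DESeq2's size factors, with a filter of 1 count, with a filter of 10 counts, with a fit of all 5 groups and with library totals, 2 with DESeq2, and 0 to 1 without 1 library. Tlr2 passed with DESeq2's size factors, the filter of 10 counts, library totals and without lymph node replicate 5. Tlr7 passed with the filter of 1 count, the fit of all 5 groups and without lymph node replicate 1 or 2. Between BM IMs it was 1, and 1 to 4 without 1 library, the 4 without FVB BM IM replicate 3. Shares of all genes under the alternatives are not given here, so counts under them cannot be read against such shares. For the interaction it was 2, and 5 with the filter of 10 counts and with DESeq2 (Tlr1, Tlr3 and Tlr9 added), 1 with the fit of all 5 groups, and 1 to 3 without 1 library. Tlr2 was lost without FVB BM IM replicate 1 or 2 and without DBA2 BM IM replicate 3. Tlr13 in LN4K1 lung TIMs also passed with the fit of all 5 groups, with DESeq2 and without replicate 5. Dividing by the longest transcript instead of all exons raised Tlr4 in primary tumor TIMs from 13.8 to 18.9 CPM per kb.

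Deviations of same-numbered libraries from their group means correlated between -0.0999 and 0.057. Differently numbered libraries were not correlated as a reference, and the labels do not say whether same-numbered libraries share a mouse. These values therefore cannot decide whether the samples are paired. With the replicate number as a block, 9 genes passed in primary tumor TIMs (not Tlr9, adjusted p = 0.0543), 9 in lymph node TIMs, 6 in LN4K1 lung TIMs (not Tlr1, adjusted p = 0.0725, or Tlr3, adjusted p = 0.133), 0 between lymph node and primary tumor TIMs, 1 between BM IMs and 2 for the interaction. Depth limits Tlr9, with as few as 6 counts in a library, and Tlr3, with as few as 13.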
